A study of Mus musculus with 6 samples.

Results

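Chromatin immunoprecipitated with an antibody against plakoglobin from differentiating mouse keratinocytes was compared with input chromatin on promoter microarrays. The members were the 3 arrays labelled as Plakoglobin ChIP, of 6 arrays in the series; the other 3 carried beta-catenin ChIP from cells under the same conditions and served for comparison. The value of a promoter is the log2 ratio of ChIP over input fluorescence, averaged over the probes of that promoter and centred on the median promoter of its array, so that 0 is the middle of an array. It was defined for 26200 of 26275 promoter sequences, and 15647 genes could be named from them. The account below covers gene families and single genes across all of these promoters.

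All 6 arrays came from keratinocytes of C57BL/6J mice that were grown to confluency and then kept for 4 days in high-calcium medium, which starts terminal differentiation in culture. Proteins were cross-linked to DNA with 2 mM disuccinimidyl glutarate for 45 min and then with 1% formaldehyde for 15 min, and the chromatin was sheared to about 500 bp. Immunoprecipitated DNA carried Cy5 and input DNA carried Cy3 on every array, so dye and sample cannot be told apart. No mock precipitation and no plakoglobin-deficient cells were analysed here. The sources do not say whether the 3 arrays came from separate cultures, so a p-value measures the spread between these arrays only, and their number limits the precision. The cell type could not be checked against its markers, because the ratios are not expression values. They are also averages over all cells of a culture, so that a signal in few cells and a weak signal in many look alike.

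Plakoglobin, encoded by Jup, is an armadillo-repeat protein that links desmosomal cadherins to the keratin cytoskeleton and also occurs in adherens junctions. Like its close relative beta-catenin, encoded by Ctnnb1, it can enter the nucleus and bind TCF/LEF factors, the DNA-binding proteins of the canonical Wnt pathway. In the absence of Wnt, a destruction complex of Axin, Apc, Gsk3b and casein kinases removes free beta-catenin. Neither armadillo protein binds DNA itself, so an antibody against it recovers DNA through partner proteins.

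The promoters of 4 genes, picked with their values known, show how far base composition upstream of the start can differ; GC content is one of the features described below. The 250 bases before the start were taken from RefSeq (GRCm38.p6), with every CpG dinucleotide in capitals. Tle1, a Groucho-type co-repressor of TCF/LEF factors (chr4:72200894-72201143, minus strand), and Gsk3b, the kinase that marks beta-catenin for removal (chr16:38088751-38089000, plus strand), lay above 0 on all 3 Plakoglobin arrays. The olfactory receptor genes Olfr1495 (chr19:13768094-13768343, plus strand) and Olfr1378 (chr11:50968770-50969019, plus strand) lay below 0 on all 3.
Tle1: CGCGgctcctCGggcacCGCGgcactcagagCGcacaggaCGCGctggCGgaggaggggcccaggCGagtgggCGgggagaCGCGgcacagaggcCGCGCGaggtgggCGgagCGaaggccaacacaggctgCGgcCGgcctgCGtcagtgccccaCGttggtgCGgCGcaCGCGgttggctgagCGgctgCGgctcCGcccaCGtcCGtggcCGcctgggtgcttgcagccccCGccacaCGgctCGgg
Gsk3b: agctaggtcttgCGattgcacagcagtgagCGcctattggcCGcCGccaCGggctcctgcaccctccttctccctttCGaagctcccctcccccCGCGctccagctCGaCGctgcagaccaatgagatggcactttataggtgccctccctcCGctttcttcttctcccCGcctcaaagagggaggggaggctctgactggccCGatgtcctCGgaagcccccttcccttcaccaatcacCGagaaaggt
Olfr1495: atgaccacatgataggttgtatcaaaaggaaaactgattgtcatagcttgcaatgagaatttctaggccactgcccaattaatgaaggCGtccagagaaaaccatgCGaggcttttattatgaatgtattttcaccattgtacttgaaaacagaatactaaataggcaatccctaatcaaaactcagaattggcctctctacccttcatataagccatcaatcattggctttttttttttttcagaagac
Olfr1378: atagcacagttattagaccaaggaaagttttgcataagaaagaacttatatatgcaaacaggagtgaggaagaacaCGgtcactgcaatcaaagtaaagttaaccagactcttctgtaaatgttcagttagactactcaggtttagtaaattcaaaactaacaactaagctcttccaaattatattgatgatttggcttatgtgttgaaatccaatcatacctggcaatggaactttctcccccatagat
These stretches hold 35 CpG for Tle1 and 15 for Gsk3b, against 2 for Olfr1495 and 1 for Olfr1378. Their GC content is 77.2% and 62.0% for the first pair and 36.4% and 35.2% for the olfactory receptors. Single genes also ran the other way: over the 300 bases around the start, Pdzrn3 and Rpap3, both below 0 on all 3 arrays, have 32 and 24 CpG, and Banf2, above 0 on all 3, has 4.

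The 3 Plakoglobin arrays agreed little with each other. Across promoters the rank correlation was 0.29 between arrays 1 and 3, 0.03 between arrays 1 and 2 and -0.01 between arrays 2 and 3, as a description over promoters that share an array. Each Plakoglobin array ranked promoters more like the beta-catenin array of the same number, with correlations of 0.35, 0.38 and 0.41 for numbers 1, 2 and 3. Array 2 stood apart in its spread, with an interquartile range of 0.722 against 0.361 on array 1 and 0.27 on array 3. A ratio above 1, or 2-fold over the array's median, was reached by 8.31%, 10.7% and 5.21% of promoters on Plakoglobin arrays 1, 2 and 3, against 1.24%, 3.25% and 5.95% on beta-catenin arrays 1, 2 and 3. Of 3377 named genes above 1 on some Plakoglobin array, 2512 lay below 0 on another. Of all 15647 named genes, 10633 did not lie on one side of 0 on all 3 Plakoglobin arrays. Changing sides was thus common among all genes, not only among those with a strong ratio.

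No promoter passed the test of Plakoglobin ChIP against input. With limma and Benjamini-Hochberg adjustment, 0 of 26200 promoters had an adjusted p under 0.05, and the lowest was 0.356. At an unadjusted p under 0.05 there were 848 promoters above 0 (3.24%) and 357 below (1.36%), 1205 in all, and 1310 would fall under 0.05 if all p-values were uniform. With the replicate number as a block, since same-numbered arrays deviated together, the counts were 1440 above and 1441 below. After adjustment 0 promoters passed with the block. The block takes out the spread that same-numbered arrays share, so these counts do not measure the whole spread between the Plakoglobin arrays. Without Plakoglobin array 2, 4 unnamed promoters passed (lowest adjusted p 0.0268), and that array was below 0 in 3 of them. In the comparison of Plakoglobin with beta-catenin arrays 0 promoters passed either (lowest limma adjusted p 0.756), and 223 (0.851%) were higher and 31 (0.118%) lower at an unadjusted p under 0.05. The values below therefore describe these arrays, and a gene or family is called above or below by its side of the array medians.

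Named genes with 1 promoter sequence and the same sign on all 3 Plakoglobin arrays were ranked by limma p. The first 10 above 0 are given here, and their side of 0 was set by that choice. Gpatch1, which encodes a G-patch protein, measured 1.68, 2.25 and 2.81 on Plakoglobin arrays 1, 2 and 3, against 0.01, -0.13 and 0.01 on the beta-catenin arrays. Bmt2, a regulator of nutrient signalling to mTORC1, measured 3.30, 1.85 and 2.42, against 0.16, 0.15 and 0.25 on the beta-catenin arrays. Banf2, a relative of the chromatin-binding barrier-to-autointegration factor, measured 1.64, 1.36 and 2.23, against -0.01, -0.19 and -0.08. In all 10 genes of the group the arrays of the 2 antibodies did not overlap. The group was picked for its Plakoglobin ratios, so this is no separate evidence of a difference. The share of all named genes without such overlap is not given here. Plakoglobin means were 2.25 ± 0.57 for Gpatch1, 2.52 ± 0.73 for Bmt2 and 1.75 ± 0.44 for Banf2 (SD, n = 3). Each of these 3 genes had a limma adjusted p of 0.395.

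The other 7 genes of that group had a limma adjusted p of 0.706 each. Pecam1, an adhesion molecule of endothelial cells and platelets, measured 1.82, 2.08 and 3.70 on Plakoglobin arrays, against -0.04, -0.91 and 0.35 on beta-catenin arrays. Clba1, a clathrin-binding protein gene, measured 2.44, 1.29 and 1.67, and the histone gene H4c12 measured 2.17, 1.92 and 0.80. Gtpbp1, which encodes a GTP-binding protein, was at 1.62, 1.58 and 0.65. Pecam1 was highest on array 3, and the other 3 of these genes on array 1. Iscu, the scaffold of iron-sulfur cluster assembly, was at 0.85, 1.39 and 1.69. Crot, a carnitine acyltransferase of peroxisomes, was at 0.68, 1.00 and 0.90, and Smpd2, a neutral sphingomyelinase, at 1.29, 0.73 and 0.80. The authors' software had called a peak on all 3 Plakoglobin arrays in 9 of the 10, and on 2 in Crot, against 0.428% of all named genes with a peak on all 3; the peaks come from the same ratios by which the genes were picked, so this is no separate evidence.

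**Figure D1:**
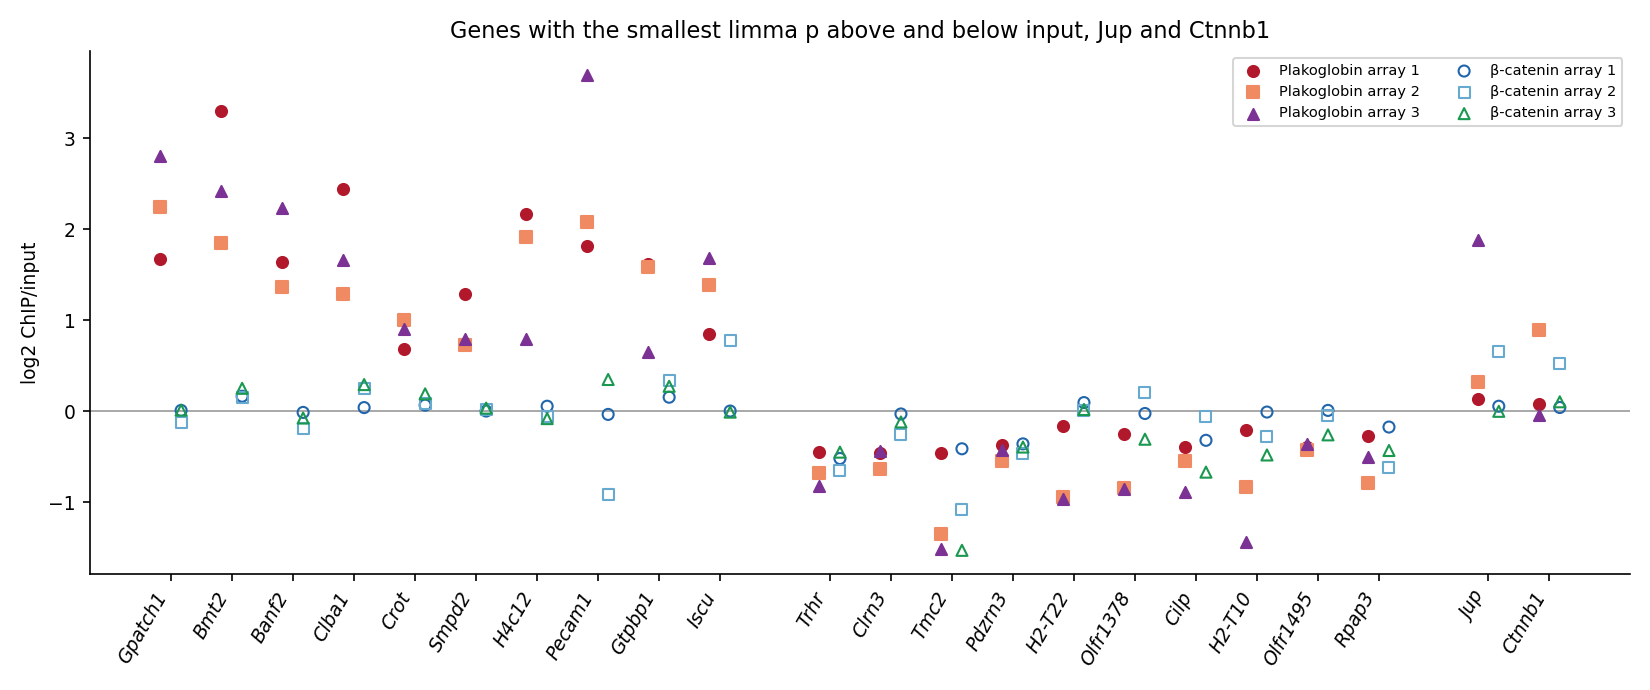
log2 ChIP/input of the 10 named genes with the smallest limma p above 0, the 10 with the smallest p below 0, Jup and Ctnnb1, with 1 marker per array (filled, Plakoglobin; open, beta-catenin). The 10 genes above 0, picked for their Plakoglobin ratios, lie higher on each Plakoglobin array than on any beta-catenin array. Trhr, Tmc2, Pdzrn3, Clrn3, Cilp, Rpap3 and H2-T10 lie below 0 on all 6 arrays.

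The 10 genes with the smallest limma p below 0, picked in the same way, had no peak on any Plakoglobin array and smaller ratios. Each had a limma adjusted p of 0.706. Tmc2, a channel subunit of hair cell mechanotransduction, measured -0.46, -1.35 and -1.51 on Plakoglobin arrays, against -0.41, -1.08 and -1.53 on beta-catenin arrays. Trhr, the receptor for thyrotropin-releasing hormone, measured -0.45, -0.68 and -0.82, against -0.52, -0.65 and -0.45, and Pdzrn3, a ubiquitin ligase gene, measured -0.37, -0.55 and -0.42, against -0.36, -0.47 and -0.39. These 3 genes were as low with either antibody. H2-T22, a nonclassical MHC class I gene, measured -0.16, -0.94 and -0.96 on Plakoglobin arrays, against 0.10, 0.01 and 0.02 on beta-catenin arrays. Its neighbour in the family, H2-T10, measured -0.21, -0.84 and -1.44, against -0.01, -0.28 and -0.48; the 2 genes are close paralogs, and cross-hybridization between them was not tested. Olfr1378 was at -0.25, -0.85 and -0.86 and Olfr1495 at -0.40, -0.43 and -0.37 on Plakoglobin arrays. Clrn3, Cilp and Rpap3 completed the set, with means of -0.51, -0.60 and -0.52, against -0.13, -0.35 and -0.41 on beta-catenin arrays. Each of them lay below 0 on every beta-catenin array too.

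The gene of plakoglobin itself, Jup, measured 0.13, 0.32 and 1.89 on Plakoglobin arrays 1, 2 and 3, against 0.06, 0.65 and 0.00 on beta-catenin arrays. Ctnnb1, the gene of beta-catenin, measured 0.08, 0.90 and -0.05, against 0.04, 0.53 and 0.10. Jup was high on array 3 only and Ctnnb1 on array 2 only, and the antibodies overlapped in both genes.

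On Plakoglobin arrays 1 and 3, though not on array 2, gene ratios were ordered by the base composition of the promoter. A RefSeq promoter (250 bases before to 50 after the start) was matched to 11875 of the 15647 named genes, or 75.89%; this is under the 80% needed for a statement on all named genes, so what follows describes the matched genes. Split into 10 bins of increasing GC content, the bin medians of GC ran from 36.0% to 74.7%. The share of genes above 0 on all 3 Plakoglobin arrays was 3.20% in the lowest bin and 39.1% in the highest. The share below 0 on all 3 was 23.4% in the lowest bin and 5.89% in the highest. Medians on array 1 ran from -0.20 to 0.13 and on array 3 from -0.19 to 0.04 over the bins. Array 2 had no such steady order, with medians of 0.12 in the lowest bin, -0.15 in the fourth and 0.29 in the highest. Over the matched genes, which share arrays, the rank correlation with GC content was 0.352, 0.084 and 0.209 on Plakoglobin arrays 1, 2 and 3, against 0.207, 0.262 and 0.196 on beta-catenin arrays. Over the 31 gene lists with a RefSeq promoter for at least 80% of their genes, the rank correlation of the list median with GC content was 0.715, -0.122 and 0.497 on Plakoglobin arrays, against 0.529, 0.366 and 0.556 on beta-catenin arrays. On Plakoglobin array 2 the lists thus had no such order.

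Strong ratios and recurrent peaks had another distribution over the bins. A ratio above 1 on at least 2 Plakoglobin arrays was measured for 2.19% of all promoters and 1.73% of all named genes. Among the matched genes the share was 1.94% in the lowest GC bin, 2.95% in the second and 0.673% in the highest. The share with a peak on at least 2 arrays was 3.11% in the lowest bin, 6.32% in the second, between 3.87% and 5.14% in the next 7 and 2.95% in the highest. The core of the TCF/LEF recognition sequence, taken as CTTTGA or CTTTGT on either strand, was found in 31.3% of the matched promoters. It was in 25.9% of those of genes above 0 on all 3 Plakoglobin arrays, in 37.4% of those below 0 on all 3 and in 31.0% of those with a peak on at least 2 arrays. The motif is AT-rich, and its share was 46.6% in the lowest GC bin, 31.1% in the sixth and 15.3% in the ninth, with the lowest share in the highest bin.

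**Figure D2:**
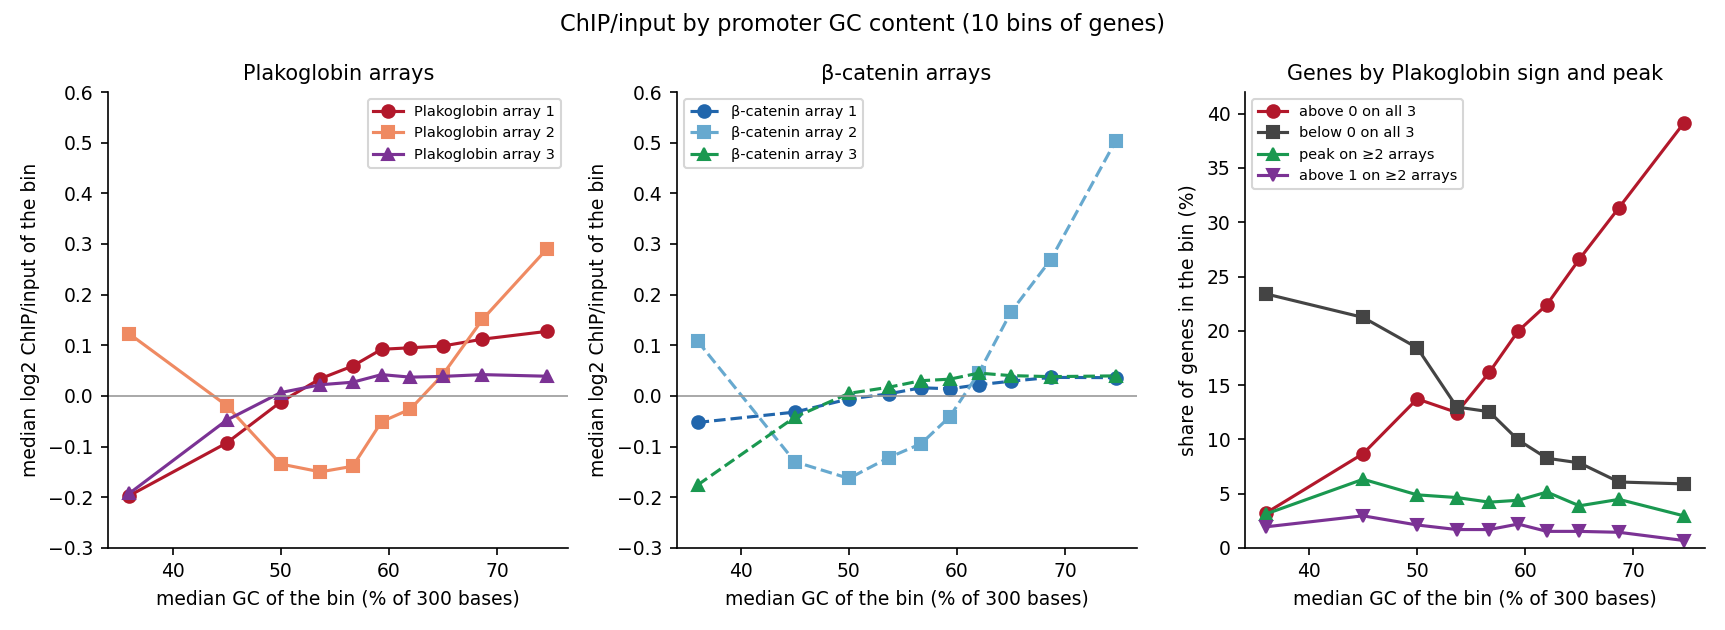
Genes with a RefSeq promoter in 10 bins of GC content (x axis, median GC percent of the bin), with the median log2 ChIP/input per array, the share of genes on one side of 0 on all 3 Plakoglobin arrays, and the share with strong ratios or recurrent peaks. The share above 0 runs from 3.20% to 39.1%, whereas the share with a peak on at least 2 arrays is 3.11% in the first bin, 6.32% in the second and 2.95% in the last.

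To describe gene families, 73 lists holding 4242 named genes were read against all named genes, of which 19.4% lay above 0 on all 3 Plakoglobin arrays, 12.7% below 0 on all 3, and whose medians were 0.03, 0.02 and 0.02. Of the 73 lists, 25 had a median above 0 on all 3 Plakoglobin arrays and 4 below 0 on all 3. In 20 of the 25 and 2 of the 4 the medians had the same sign on the 3 beta-catenin arrays too. By class, 58 of 237 adhesion and Wnt genes (24.5%) and 202 of 865 transcription regulators (23.4%) lay above 0 on all 3 Plakoglobin arrays. Housekeeping genes stood at 170 of 919 (18.5%), epidermal genes at 33 of 193 (17.1%), and genes of immune defence, sensory receptors and the germ line at 79 of 1434 (5.51%). Olfactory receptors made up 934 of those 1434 genes, with 2.89% above. The lists of this last class ran from 0 of 41 natural killer lectin receptors to 15 of 70 interleukins and receptors (21.4%).

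Wnt pathway genes were among the families with medians above 0. Of 16 TCF/LEF factors and coactivators, 9 lay above 0 on all 3 Plakoglobin arrays and 1 below, with list medians of 0.16, 0.31 and 0.14 on arrays 1, 2 and 3. Tle1 measured 0.21, 1.08 and 0.35, and Smarca4, the ATPase of a chromatin remodelling complex, 0.17, 1.25 and 0.04. Cdc73, a subunit of the PAF1 elongation complex, measured 0.36, 0.42 and 0.25. Tle1 and Smarca4 owed their means to array 2, while Cdc73 was even over the 3 arrays. Of the 3 genes in the list that encode DNA-binding TCF proteins, Tcf7l2 measured 0.14, 0.34 and 0.15, Tcf7l1 0.16, -0.08 and 0.15, and Tcf7 -0.01, 0.31 and -0.05. The co-repressor gene Ctbp2 was the 1 member below 0 throughout, at -0.14, -0.13 and -0.40. On the beta-catenin arrays 10 of the same 16 genes lay above 0 on all 3 and 1 below.

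Of 18 Wnt ligand genes 6 lay above 0 on all 3 Plakoglobin arrays and 0 below, and of 13 Frizzled, Lrp and related receptor genes 4 lay above and 1 below. The ligand genes Wnt7b (1.18, 0.55 and 0.08), Wnt9a (0.92, 0.15 and 0.04) and Wnt11 (0.86, 0.21 and 0.02) were highest on array 1 and near 0 on array 3. Fzd10 measured 0.18, 0.93 and 0.12, and Fzd3 was the receptor gene below 0, at -0.36, -0.17 and -0.34. In the destruction complex and Dishevelled list 4 of 10 lay above and 1 below. Csnk1e, a casein kinase gene, had 1.07, 1.76 and 0.11 and a peak on arrays 1 and 2, and Gsk3b had 0.39, 0.52 and 0.21. Dvl3, which relays the Wnt signal to the complex, had 0.37, 0.89 and 0.10. Axin2, a scaffold of the complex and a common Wnt target, measured -0.05, -0.06 and -0.07, close to the array medians. Genes commonly listed as Wnt targets stood at 4 of 23 above and 3 below, with Myc at 0.23, 0.02 and 0.35, which is near the share of all named genes.

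Growth factor and developmental regulator genes differed from list to list. Of 25 fibroblast growth factor and receptor genes 12 lay above 0 on all 3 Plakoglobin arrays and 1 below, against 13 and 0 on the beta-catenin arrays. Fgf8 measured 0.90, 0.20 and 0.16, Fgf3 measured 0.36, 1.22 and 0.12, and Fgf7, a growth factor for keratinocytes, 0.07, 3.07 and 0.32. Each was high on 1 array, and Fgf5, a regulator of hair growth, was below 0 at -0.10, -0.30 and -0.10. Hedgehog pathway genes stood at 6 of 14 above, Sox factors at 6 of 16, Forkhead factors at 15 of 40 and LIM, Pax and other homeobox factors at 27 of 86. T-box factors (2 of 12), Klf and Sp factors (4 of 19) and the Smad and TGF-beta family (10 of 41) were nearer to the share of all named genes. Foxj2 measured 0.23, 0.63 and 1.39 and Sox30, a regulator of spermatogenesis, 3.55, 0.60 and 0.20.

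Of 16 AP-1 genes, whose products pair as Fos, Jun and Maf dimers, 7 lay above 0 on all 3 Plakoglobin arrays and 0 below, and 8 and 0 on the beta-catenin arrays. The small Maf genes Maff (1.73, 0.28 and 0.24) and Mafk (1.41, 0.28 and 0.14) and the gene Fosl2 (0.41, 0.08 and 0.34) were among them. Junb at 4.22, -0.14 and -0.16 and Jun at 3.71, -0.43 and 0.09, picked after their values were seen, were high on array 1 alone. Ubiquitin conjugating enzymes and F-box proteins stood at 24 of 80 above and 5 below, and chromatin modifiers at 28 of 111 and 6.

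**Figure D3:**
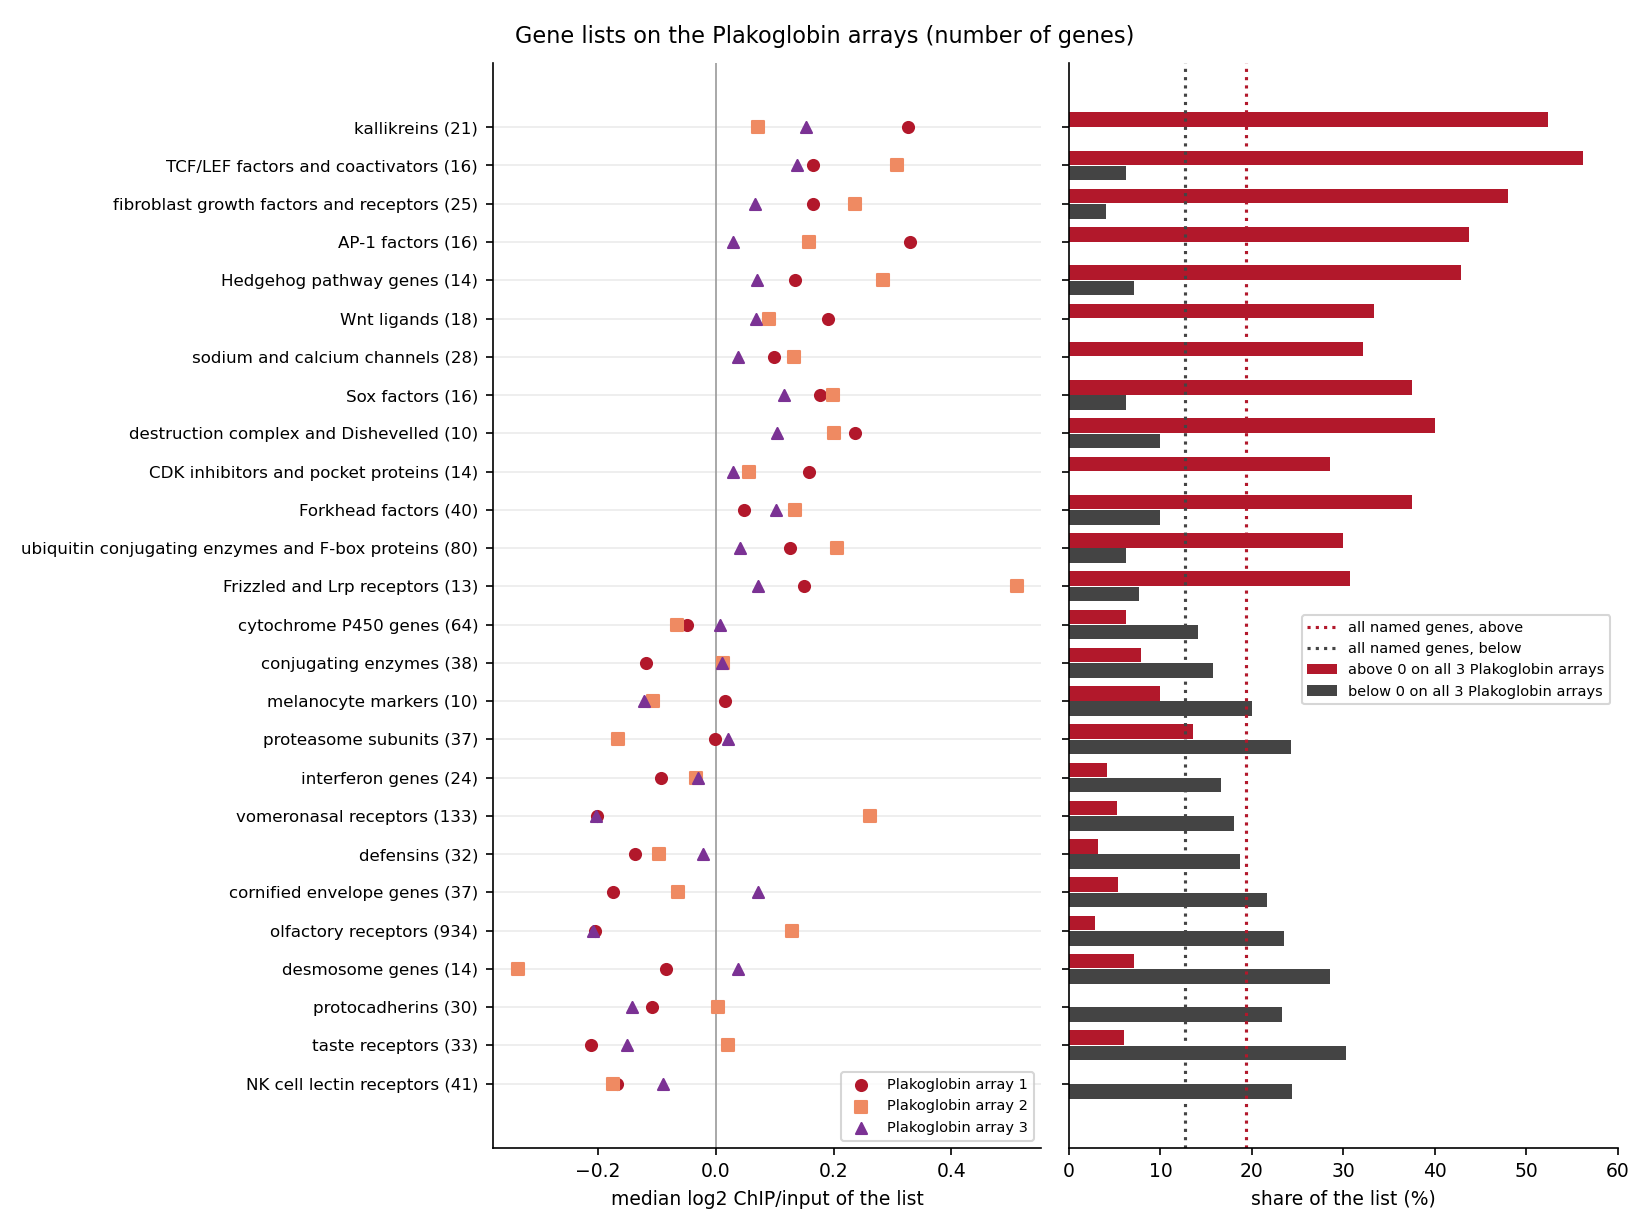
Left, the median log2 ChIP/input of gene lists on each Plakoglobin array; right, the percent of each list above or below 0 on all 3 Plakoglobin arrays, with dotted lines for all named genes. TCF/LEF, FGF and AP-1 genes lie above the 19.4% line and olfactory receptors at 2.89%.

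Among structural genes of the epidermis, desmosome, keratin and cornified envelope genes had few members above 0 on all 3 Plakoglobin arrays, against 19.4% of all named genes. Of 14 desmosome genes, the proteins that plakoglobin joins at cell contacts, 1 lay above 0 on all 3 Plakoglobin arrays and 4 below, with medians of -0.08, -0.34 and 0.04. Without array 1, 2 or 3 the number above on both remaining arrays was 1, 4 and 1 (7.14%, 28.6% and 7.14%). Of all named genes 27.8%, 35.2% and 30.6% lay above on both, so the low desmosome count depends on array 2. Dsc1, a desmocollin gene, measured -0.11, -0.62 and -0.40 and Dsg4, a desmoglein gene of the hair follicle, -0.76, -0.24 and -0.09. The 1 above was Jup. Of 40 type I and II keratin genes 3 lay above and 3 below, with medians of 0.10, -0.33 and 0.04. Without array 1, 2 or 3 the keratin genes above 0 on both remaining arrays were 5, 17 and 5, so that the low count rests on array 2. Krt9, a keratin of palm and sole, was at 0.24, 1.53 and 0.26. Cornified envelope genes, the barrier proteins of terminal differentiation, stood at 2 of 37 above and 8 below, and at 7, 6 and 6 above on both remaining arrays. Within them Sprr1a measured 0.04, 1.93 and 1.08, while Lce1e measured -0.28, -0.33 and -0.42. Claudin genes, which encode tight junction proteins, stood at 5 of 19 above and 1 below, and at 6, 12 and 6 above without array 1, 2 or 3, with Cldn7 at 0.92, 2.52 and 0.12.

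Olfactory, vomeronasal and taste receptors and natural killer lectin receptors had few members above 0. Of 934 olfactory receptor genes 27 (2.89%) lay above 0 on all 3 Plakoglobin arrays and 220 (23.6%) below, with medians of -0.21, 0.13 and -0.21 on arrays 1, 2 and 3. Arrays 1 and 3 were low and array 2 was high for this family. On the beta-catenin arrays 67 lay above and 171 below, with medians of -0.06, 0.10 and -0.18. Without Plakoglobin array 1, 2 or 3 the number below on both remaining arrays was 246, 630 and 279 of 934, against 3445, 3969 and 3585 of all 15647 named genes; the family stood furthest from the other genes without array 2. Olfr1328 at 1.93, 0.59 and 0.71 and Olfr380 at 0.82, 0.31 and 0.87 were members on the other side. Vomeronasal receptors stood at 7 of 133 above and 24 below, with medians of -0.20, 0.26 and -0.20, and taste receptors at 2 of 33 and 10. The many copies of these receptor genes share sequence, so single values are uncertain, and cross-hybridization was not tested.

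Lectin receptors of natural killer cells stood at 0 of 41 above and 10 below, with medians of -0.17, -0.17 and -0.09, against 4 above and 6 below on the beta-catenin arrays. Other immune lists varied, against 19.4% of all named genes above and 12.7% below. Interleukins and receptors stood at 15 of 70 above (21.4%) and 13 below (18.6%). MHC genes stood at 5 of 26 above (19.2%) and 7 below (26.9%), and interferon genes at 1 of 24 above and 4 below. Klrb1a measured -0.20, -0.61 and -0.70. Defensins, antimicrobial peptides, stood at 1 of 32 above and 6 below, and at 0 and 11 on the beta-catenin arrays. Among protocadherins, cadherin relatives of neurons, 0 of 30 lay above and 7 below, against 5 and 2 on the beta-catenin arrays.

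In the 31 lists with a RefSeq promoter for at least 80% of their genes, the list medians were compared with those of all matched genes before and after the median of each gene's GC bin was subtracted. The 789 matched olfactory receptor genes differed from the matched genes by -0.24, 0.10 and -0.22 on Plakoglobin arrays 1, 2 and 3. After that step the differences were -0.02, 0.02 and -0.03. These genes make up much of the lowest GC bin, whose medians were -0.20, 0.12 and -0.19 on the same arrays. The subtracted medians were thus largely the family's own, so a small difference after the step was built in. Whether GC content accounts for the family's values was not tested. The 15 matched TCF/LEF genes stood 0.14, 0.29 and 0.11 above the matched genes on Plakoglobin arrays 1, 2 and 3, and 0.08, 0.16 and 0.09 above after that step, with 9 of 15 above 0 on all 3 arrays before and 7 after. The 20 matched kallikreins stood 0.28, 0.08 and 0.14 above, and 0.25, 0.24 and 0.13 above after it, with 11 above on all 3 arrays before and after. Over the 31 lists the step brought the median closer to that of the matched genes in 25 lists on array 1, 17 on array 2 and 18 on array 3. It was added after the data had been seen, and the 3 lists were picked from the 31 with their values known.

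Kallikreins, serine proteases of glands and of the shedding epidermis, stood above 0 on the Plakoglobin arrays. Of 21 genes, all on chromosome 7, 11 lay above 0 on all 3 Plakoglobin arrays and 0 below, against 2 and 1 on the beta-catenin arrays; the difference between the antibodies was not tested. The median of the list's group means was 0.26 above that of all named genes from the probe means and 0.13 above from the probe medians. Above 0 on both remaining arrays were 13, 17 and 11 without Plakoglobin array 1, 2 or 3. Their promoters are of middling GC content, as that of Klk1b24 shows (chr7:44187986-44188235 of GRCm38.p6, plus strand), whose 250 upstream bases hold 0 CpG and 52.8% GC and are given in the same style.
Klk1b24: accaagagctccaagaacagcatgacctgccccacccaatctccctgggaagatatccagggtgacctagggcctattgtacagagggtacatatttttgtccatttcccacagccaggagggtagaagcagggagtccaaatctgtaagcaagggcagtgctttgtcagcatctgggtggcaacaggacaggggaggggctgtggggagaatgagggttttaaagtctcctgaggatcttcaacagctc
Klk1b24 measured 0.38, 3.49 and 0.69 on Plakoglobin arrays, against 0.02, -0.22 and 1.02 on beta-catenin arrays. Klk1b21 measured 0.30, 2.86 and 0.15, against 0.19, -0.58 and 1.72, and Klk1b27 0.09, 1.72 and 0.20, against -0.01, -0.37 and 0.56. Each was highest on array 2 with Plakoglobin and on array 3 with beta-catenin, and the antibodies overlapped. Of the 12 Klk1b paralogs 8 lay above 0 on all 3 Plakoglobin arrays and 1 on all 3 beta-catenin arrays, with medians of 0.35, 0.54 and 0.24 against 0.03, -0.58 and 1.04. Of the other 9 kallikreins 3 lay above on all 3 Plakoglobin arrays, with medians of 0.25, -0.34 and 0.12. The Klk1b genes lie side by side and are closely alike in sequence, so their 12 values are not 12 independent measurements, and cross-hybridization was not tested. The lowest limma adjusted p among the 3 named Klk1b genes was 0.706.

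**Figure D4:**
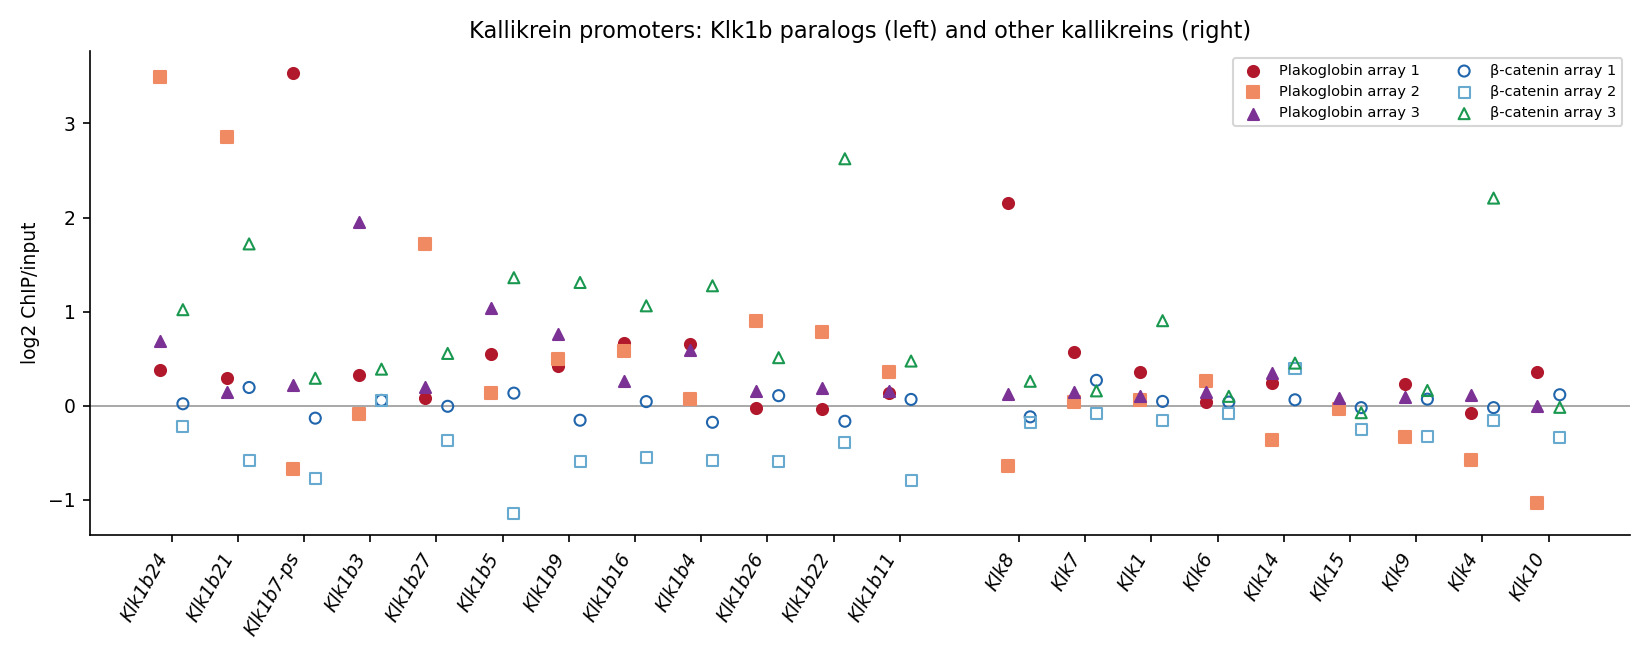
log2 ChIP/input of 21 kallikrein promoters, Klk1b paralogs left and other kallikreins right, with filled markers for Plakoglobin and open markers for beta-catenin arrays 1 to 3. Of the 12 paralogs 8 have all 3 filled markers above 0, and beta-catenin array 2 is low and array 3 high for most of them.

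The authors' peak lists were used for the position of peaks and for how many arrays listed one for a gene, not for peak height or score. They hold 2524, 2684 and 1739 peaks on Plakoglobin arrays 1, 2 and 3, with q-values of up to 0.187, 0.193 and 0.14. The median peak lay 200, 324 and 414 bp upstream of the nearest listed start, and 66.2%, 58.3% and 50.3% of peaks lay within 500 bp of it. Peaks rarely recurred at one position. Of 15647 named genes 671 (4.29%) had a peak on at least 2 Plakoglobin arrays, and in 348 of these (51.9%) peaks of different arrays shared a base. A peak on all 3 arrays was listed for 67 genes (0.428%), and for 17 of these (25.4%) 1 base was covered on all 3. In Gpatch1 the peaks lay 815, 690 and 520 bp upstream on arrays 1, 2 and 3, and in Clba1 669, 504 and 669 bp. Banf2 had them at 50 bp downstream, 444 bp upstream and 5 bp downstream, and Bmt2 at 915, 440 and 1195 bp upstream.

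Histone genes held the highest share of recurrent peaks among lists of 20 or more genes. Of 58 replication-dependent and other histone genes 18 (31.0%) had a peak on at least 2 Plakoglobin arrays and 7 on all 3. Peaks of different arrays shared a base in 8 of the 18, and 1 base was covered on all 3 arrays in 2 of the 7. Histone genes stand close together and head to head, so that 1 peak is listed for several: the 18 genes fall into 7 groups that share peaks, and the 7 genes into 3 (H2ac10, H3c8 and H4c8; H2bc11 and H4c9; H2bc15 and H4c12). Of the 58 genes 44 lie on chromosome 13, as do 16 of the 18. The promoter ratios of the list were near the array medians, with a median group mean of 0.03. H4c12 was at 2.17, 1.92 and 0.80, but H2bc15, which shares its peaks, was at -0.14, -0.15 and -0.07. In another group H4c9 was at 0.09, 1.06 and 0.85 and H2bc11 at -0.12, 1.03 and 0.30. H2ac10 was at -0.12, -0.27 and -0.41. Of the genes that share its peaks, H4c8 was at 0.40, 1.36 and 0.29 and H3c8 at 0.12, -0.81 and -0.02. Leaving out array 1, 2 or 3 left 9, 12 and 11 histone genes with a peak on both other arrays, against 1.59%, 1.50% and 2.06% of all named genes. Copies of 1 histone type share coding sequence, and cross-hybridization was not tested.

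**Figure D5:**
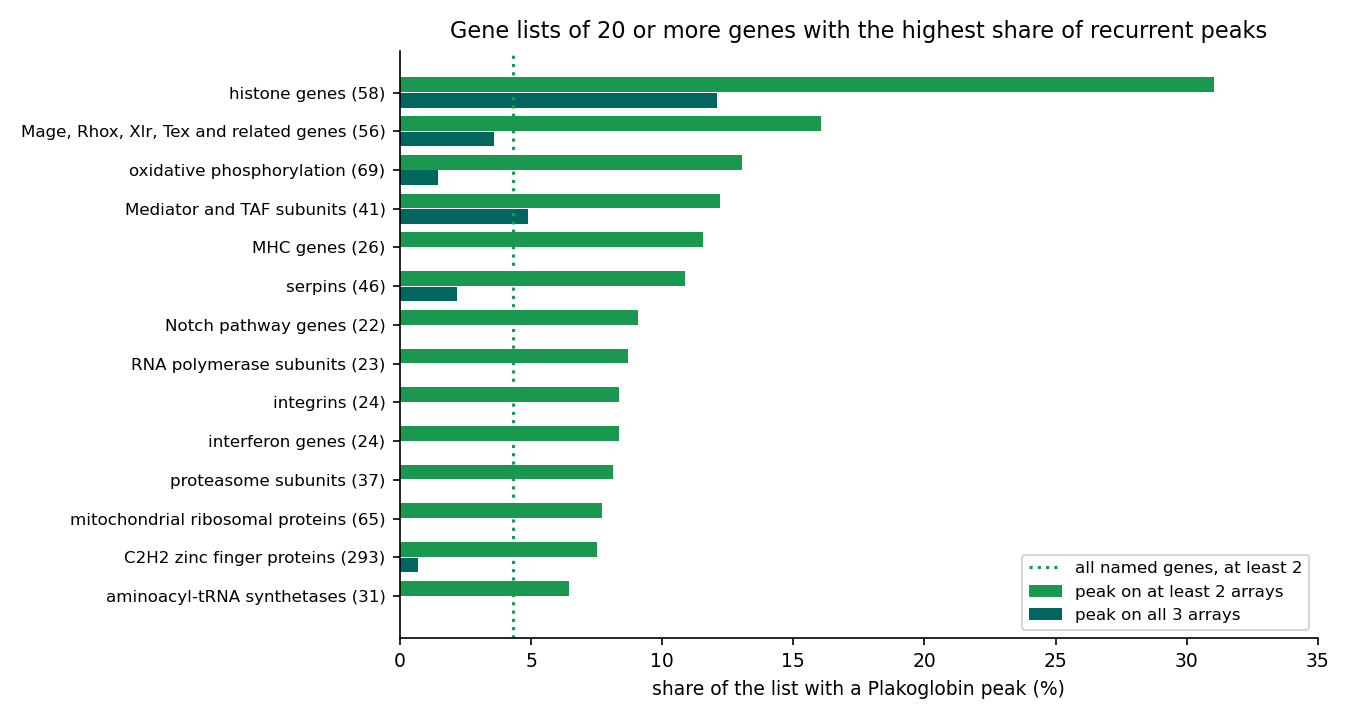
Share of each gene list (20 or more genes, number in brackets) with a Plakoglobin peak on at least 2 arrays and on all 3, with a dotted line for all named genes (4.29%). Histone genes lead with 31.0% on at least 2 arrays. The peaks of a gene on different arrays need not overlap.

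Other lists with many recurrent peaks were Mage, Rhox, Xlr, Tex and related genes (9 of 56, 16.1%) and oxidative phosphorylation (9 of 69, 13.0%). Mediator and TAF subunits (5 of 41, 12.2%), MHC genes (3 of 26) and serpins (5 of 46, 10.9%) followed. These counts do not require the peaks to lie at one position. Peaks of different arrays shared a base in 4 of the 9 Mage and related genes and 3 of the 9 oxidative phosphorylation genes. They did so in 4 of the 5 Mediator and TAF genes, 2 of the 3 MHC genes and 5 of the 5 serpins. Without array 1, 2 or 3, a peak on both other arrays was listed for 3, 1 and 7 oxidative phosphorylation genes. It was listed for 3, 4 and 2 Mediator and TAF genes and 2, 0 and 1 MHC genes. Serpins had 3, 2 and 2, and the Mage and related genes 3, 5 and 5. The oxidative phosphorylation and MHC counts thus depend on array 2. The list of Mage and related genes was made by symbol, and 32 of its 56 genes lie on chromosome X. It took in Slx1b, Slx4 and Slx4ip through their symbols only. Without these DNA repair genes it stood at 8 of 53, and the other members were not checked for a role in the germ line. Xmr, a meiotic gene with 4 promoters here, measured 1.73, 1.50 and 1.52 on Plakoglobin arrays, against -0.21, -1.96 and -1.36 on beta-catenin arrays. Rhox4b, a reproductive homeobox gene, measured 1.73, 1.73 and 0.02, against -0.18, -0.75 and 0.33. Xmr was high on all 3 Plakoglobin arrays and Rhox4b on arrays 1 and 2. Both belong to multi-copy families on chromosome X, and their values are uncertain for that reason.

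Serpina1a, which encodes the protease inhibitor alpha-1-antitrypsin, measured 0.66, 2.00 and 3.46 on Plakoglobin arrays, against -0.07, -1.36 and -0.21 on beta-catenin arrays. Its paralog Serpina1e measured 0.45, 2.89 and 2.66, against -0.04, -0.98 and -0.27. The antibodies did not overlap in either gene, but both genes were picked by their values on the Plakoglobin arrays. Cross-hybridization between the paralogs was not tested. Among the Mediator genes, whose products connect transcription factors with RNA polymerase, Med13l had 2.35, 0.78 and 0.65 and Med10 1.32, 0.25 and 0.61, both with a peak on all 3 arrays. The peaks of all 3 arrays overlapped in Med10, whereas the array 3 peak of Med13l lay apart. Cox4i1, a subunit of cytochrome oxidase, had 0.08, 1.07 and 0.93. C2H2 zinc finger proteins stood at 22 of 293 with a peak on at least 2 arrays (7.51%) and olfactory receptors at 23 of 934 (2.46%).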

How the data were processed

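Two-colour promoter arrays were read from the deposited tables, which give per promoter sequence the mean and median log2 ratio of ChIP (Cy5) over input (Cy3) and its standard deviation over probes, and from the authors' peak lists with a score and a false discovery rate (q-value) per peak, per the file headers. The probe normalization and the genome build are not given in the sources used here. Peak scores were not compared. Each array was centred on its median (0.229, 0.447 and 0.194 before centring on Plakoglobin arrays 1, 2 and 3). Of 26200 sequences 16844 were named through RefSeq (12527 by accession, 1794 by synonym, 1710 by symbol) or by the file's own name (813), and sequences of a gene were averaged. The MEAN column of all 6 arrays was fitted with limma 3.58.1 (R 4.3.3), with the Plakoglobin mean tested against 0 and against beta-catenin; the fit was tested on simulated data. Replicate numbers come from the labels. Deviations of same-numbered arrays of the 2 antibodies from their group means correlated at 0.203, 0.235 and 0.218, all above 0, and the numbers were taken to pair the arrays. Genes were named by rule. The 10 with the smallest limma p on either side of 0 came from genes with 1 promoter sequence and the same sign on all 3 Plakoglobin arrays. Jup and Ctnnb1 were added. In each list the 3 genes above and 2 below 0 on all 3 arrays with the smallest limma p were taken. Members of described lists with a peak on all 3 arrays were also named. Others are given as whole sets or said to be picked later. The members and lists were chosen with earlier results of these data known. Tables and figures used Python 3.11.15, pandas 2.3.3, numpy 2.4.6 and matplotlib 3.10.9.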

Additional observations from a re-analysis of the deposited data

Results flagged for a closer look

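Of the genes named by rule, 16 had opposite signs with the antibodies. They lay on one side of 0 on all 3 Plakoglobin arrays and on the other on all 3 beta-catenin arrays. Among all named genes 19.1% lay above 0 and 12.4% below 0 on all 3 beta-catenin arrays, whatever their sign on the Plakoglobin arrays. The share of all named genes with opposite signs is not given here, so the 16 cannot be set against it. Most genes named by rule were picked for 1 sign on all 3 Plakoglobin arrays. These 16 are therefore no separate evidence of a difference. For the 11 genes with 1 promoter the difference was tested in the limma comparison of the antibodies across all promoters, where none passed after adjustment (adjusted p 1.00 each). For the other 5, whose values are means over several promoters, it was not tested. Given as the Plakoglobin mean minus the beta-catenin mean on the log2 scale, 11 were higher with Plakoglobin: Xmr by 2.76, Serpina1a by 2.58, Serpina1e by 2.43, Banf2 by 1.84, Eif3f (a translation initiation factor subunit) by 1.76, Olfr1328 by 1.55, Hnrnpf (a splicing regulator) by 1.34, Cxcl12 (a chemokine) by 1.22, Tgfbr3 (a TGF-beta co-receptor) by 1.00, Cd14 (an endotoxin co-receptor) by 0.94 and Psg22 (a pregnancy-specific glycoprotein) by 0.72. The other 5 had negative differences: H2-T22 with -0.73, Cyp2c37 (a cytochrome P450) with -0.52, Cd3e (a T cell receptor subunit) with -0.41, Pcdhb5 (a protocadherin) with -0.40 and Tbx15 (a T-box factor) with -0.15. Groups of 3 arrays were not tested for outliers.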

How the results depend on the processing

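No promoter passed an adjusted p under 0.05 with limma under the other settings tried, except without Plakoglobin array 2, where 4 did, none of them named (range 0 to 4 over the left-out arrays). At an unadjusted p under 0.05, promoters above input (848) were 4360 without centring, 429 with an eBayes trend, 340 from the Plakoglobin arrays only and 502 to 1133 with 1 array left out; those below (357) were 7 without centring, 561 with the trend, 164 from single-sequence accessions and 141 to 536 with 1 array left out. With the replicate number as a block for the pairing they were 1440 and 1441. Promoters higher with Plakoglobin than with beta-catenin (223) were 142 from the MEDIAN column and 85 to 543 with 1 array left out, and those lower (31) were 9 without centring, 63 with MAD scaling, 105 after quantile normalization, 51 with the replicate block and 9 to 182 with 1 array left out. The block changed no adjusted call. Promoters above the median on all 3 arrays (4397) were 15483 without centring and 6579 to 8108 on 2 arrays, and those below (4272) were 200 and 6597 to 8126. Accessions with a peak on at least 2 arrays (993) were 560 at a q-value of at most 0.05, 347 where peaks overlapped by at least 50% of the shorter and 331 to 481 with 1 array left out, and those on all 3 (95) were 35 at that q-value and 28 with that overlap. Lists with medians above 0 throughout (25) were 30 to 40 with 1 array left out, and those below (4) were 8 from the MEDIAN column and 8 to 11. Counts of list members depend on array 2: above 0 on both remaining arrays without array 1, 2 or 3 were 10, 12 and 9 of 16 TCF/LEF genes, 12, 15 and 14 of 25 FGF genes and 13, 17 and 11 of 21 kallikreins, against 27.8%, 35.2% and 30.6% of all named genes. Subtracting GC bin medians, leaving out Slx1b, Slx4 and Slx4ip, and these 2-array counts of lists were added after seeing the data. The causes were not tested.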

Other observations

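Chromosome 4 had the highest share of named genes above 0 on all 3 Plakoglobin arrays, 27.0%, with the other chromosomes between 14.3% and 23.2%. Promoter sequences whose accession is listed several times on the array lay below 0 on all 3 Plakoglobin arrays in 31.4% of cases, against 16.3% of all promoters. Of them 2632 sequences belong to 4 accessions with at least 100 sequences each, and 39.5% of these lay below. Among single genes outside the paragraphs above, Smarcc2, a subunit of the SWI/SNF remodelling complex, measured 3.28, 0.31 and 3.64 on Plakoglobin arrays 1, 2 and 3 and had a peak on each. The peaks of arrays 1 and 3 overlapped, and that of array 2 overlapped neither. Hnrnpf measured 0.91, 0.91 and 0.76, with similar values on all 3 arrays, as the mean of 5 promoters. Its listed peaks lay on chromosomes 4 and 6, so the mean may join different loci and does not describe a single promoter. Vmn1r69, a vomeronasal receptor gene, measured 1.20, 1.40 and 0.76.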
